A study of Mus musculus with 2 samples.

Results

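The self-renewal regulators followed here are 10 genes that keep blood stem cells self-renewing or are used to mark them: Hlf, Mecom, Prdm16, Fgd5, Ctnnal1, Mllt3, Msi2, Etv6, Robo4 and Ptgs1. They were chosen by symbol, and their probes were found through the RefSeq accession that the array files give for each probe. All 10 genes were found, with 13 probes, among 13380 genes above background and 20651 named genes on the array. Of these genes 7 had 1 probe, and Mecom, Ctnnal1 and Msi2 had a pair each.

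The cells were LSK cells, the fraction of mouse blood-forming tissue without lineage markers and positive for Sca-1 and c-Kit, which holds the stem cells and the multipotent progenitors. Adult LSK cells were sorted from bone marrow of wild-type C57BL/6 mice of 8 weeks, and fetal LSK cells from wild-type fetal liver at E14.5, for which the labels give no strain. Neither population had been transplanted, and the labels do not say how many animals were pooled. Each population was read on 1 single-colour Agilent array, so no difference has a replicate check, and age and tissue differ together.

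A stem cell that divides may give daughters that remain stem cells or daughters that differentiate, and self-renewal is the balance between these fates. Transcription factors such as Hlf, Mecom and Prdm16 hold the stem cell programme, chromatin and RNA-binding proteins such as Mllt3 and Msi2 act on its transcripts, and surface and signalling proteins such as Robo4 and Fgd5 link the cell to its surroundings. In the mouse, stem cells of the fetal liver expand in number, while most of those in adult marrow rest.

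Values are processed signals from the scanner software. A scaled level is the log2 signal minus the log2 of the array's 75th percentile, which was 179 for bone marrow, against 134 for fetal liver. A difference is the scaled level in bone marrow minus that in fetal liver, so a positive value means higher in bone marrow. Errors after ± are the software's technical errors, which are not measured from repeated spots and hold no biological spread. Levels of different probes are not compared gene against gene, because probes bind with different strength. Summed signals of marker lists mix such probes and are compared only between the arrays.

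Most of the self-renewal regulators lay close together on the 2 arrays. All 10 genes were well above background on both, and 7 of them differed by less than 2-fold. Ctnnal1 was 3.36-fold and Ptgs1 2.60-fold higher in fetal liver, and Fgd5 was 2.08-fold higher in bone marrow, by a spot whose value depends on how its pixels are read. Of all 13380 genes above background, 8.15% were higher by 2-fold or more in bone marrow and 6.76% in fetal liver, 14.9% in all. The counts among the members, 1 and 2 of 10, are too small to be set apart from these shares. The median difference of the members was -0.43, beside -0.11 for all genes, and 6 members were below 0, as were 57.7% of all genes. In bulk samples a difference in signal cannot tell fewer cells of a type from less RNA per cell.

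**Figure D1:**
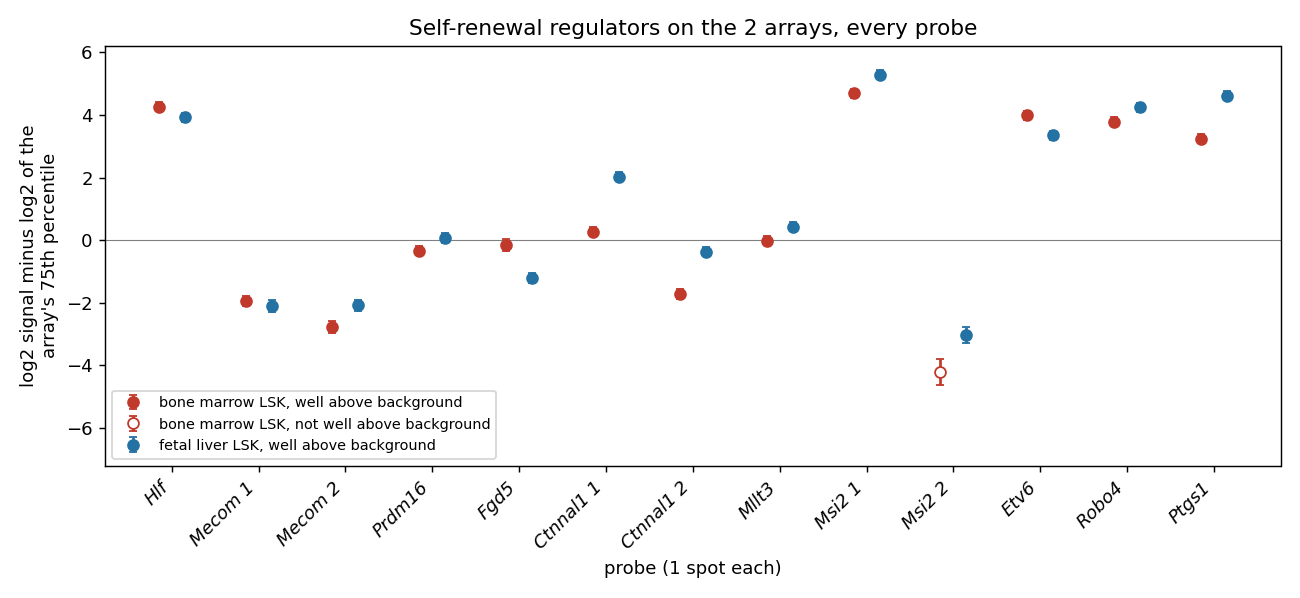
Scaled level of every probe of the 10 genes (y axis, log2 signal minus log2 of the array's 75th percentile), with bone marrow LSK in red left of fetal liver LSK in blue. Bars are the software's signal error, 1 spot per probe and array, and an open circle is not well above background. The pairs of Ctnnal1 and Ptgs1 stand farthest apart with fetal liver above, and Fgd5 with bone marrow above. Heights should be compared only within a probe.

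Hlf encodes a PAR bZIP transcription factor that maintains the stem cell state and quiescence. Its probe had a signal of 3436 in bone marrow, against 2040 in fetal liver, which scaled to 4.26 in bone marrow and 3.93 in fetal liver. The difference was 0.34 ± 0.20, which is 1.64 times its technical error, and it lay at percentile 77.0 of all gene differences. Of the 3 related bZIP genes, Dbp, a clock-controlled relative, was 2.32-fold higher in bone marrow (1.21 ± 0.20), with its other probe at 1.16. Tef differed by -0.64 and Nfil3, a repressor that binds the same kind of site, by 0.20. Hlf has been used with other factors to turn mouse blood cells into stem cells, and 6 of the 7 genes listed with it were above background on at least 1 array. Mycn, a Myc family factor, was 6.88-fold higher in fetal liver, with signals of 685 in bone marrow, against 3529 in fetal liver. Lmo2, a bridging protein of stem cell transcription complexes, was 2.12-fold higher in bone marrow, and 0.98 on the log2 scale when the median pixel was used. Meis1 differed by 0.28, and Zfp37 was dim on both arrays. Runx1t1 was higher in fetal liver by at least 1.67-fold, from a signal not above background in bone marrow (2.87) and 15.4 in fetal liver.

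Mecom and Prdm16 encode related zinc finger proteins with a PR domain, and both are needed to keep mouse blood stem cells. Mecom is transcribed from more than 1 start, and the forms from the upstream start carry the PR domain while Evi1, from the internal start, lacks it. The start-site windows of these genes are shown because they carry a sequence in common. Each window runs from 250 bases before to 50 bases after a RefSeq start on GRCm38.p6, 5′ to 3′ on the gene's strand. The upstream Mecom start (chr3:30509710-30510009, minus strand) and the Prdm16 start (chr4:154636824-154637123, minus strand) share the 24 bases in capitals, and the internal Mecom start (chr3:30013155-30013454, minus strand) does not. In the last window the capitals mark a CCAAT box on the other strand.
Mecom upstream start: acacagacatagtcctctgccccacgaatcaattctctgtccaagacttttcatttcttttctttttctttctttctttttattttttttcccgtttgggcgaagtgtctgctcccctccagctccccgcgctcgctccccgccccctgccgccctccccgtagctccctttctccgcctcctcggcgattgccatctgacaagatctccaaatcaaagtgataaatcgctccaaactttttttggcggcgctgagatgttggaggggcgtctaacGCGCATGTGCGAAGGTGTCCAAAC
Prdm16 start: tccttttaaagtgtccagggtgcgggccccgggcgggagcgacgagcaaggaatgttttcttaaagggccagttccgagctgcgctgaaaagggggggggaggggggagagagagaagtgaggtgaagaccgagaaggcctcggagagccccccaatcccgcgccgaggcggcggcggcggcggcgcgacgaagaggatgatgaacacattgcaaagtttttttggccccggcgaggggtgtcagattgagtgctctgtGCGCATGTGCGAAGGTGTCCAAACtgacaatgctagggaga
Mecom internal start: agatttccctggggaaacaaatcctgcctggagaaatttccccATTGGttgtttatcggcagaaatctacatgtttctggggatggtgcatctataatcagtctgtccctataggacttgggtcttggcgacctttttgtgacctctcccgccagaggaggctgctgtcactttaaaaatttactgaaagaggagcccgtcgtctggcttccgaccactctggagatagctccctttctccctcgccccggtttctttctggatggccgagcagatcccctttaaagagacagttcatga
The shared stretch lies at bases 27 to 50 after the Mecom start and at bases 10 to 33 after the Prdm16 start, in the transcribed part of the window. It ends at the last base of the Mecom window, so 24 bases is a lower limit of its length. It was found in 2 of 32851 windows of all genes, these ones. The next longest stretch shared by windows of different members had 14 bases and stood in 34 windows. The Mecom starts lie 496555 bases apart.

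The Mecom probes did not move together, and which of these forms each probe detects was not determined here. The probe for transcript record NM_021442 had signals of 46.5 in bone marrow, against 31.3 in fetal liver, a difference of 0.16 ± 0.25. The probe for NM_007963 had signals of 26.2 in bone marrow, against 31.7 in fetal liver, a difference of -0.69 ± 0.27. The first difference is smaller than its technical error and the second is 2.59 times its error, and all signals were dim. Mecom therefore has no settled direction here, and its gene value was -0.11 under normexp background correction and -0.27 as the mean of the probes. Prdm16 had signals of 141 in bone marrow, against 141 in fetal liver, and after scaling its difference was -0.41 ± 0.21.

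Of the 12 other PR domain genes found, 6 were above background on at least 1 array and none differed by 2-fold, with a median of 0.16. Prdm2, which encodes the RIZ protein, differed by 0.68 and Prdm1, which encodes the repressor Blimp1, by 0.03. Among 9 measured corepressors of the Mecom and Prdm16 proteins, Skil, which encodes the SMAD repressor SnoN, was 14.8-fold higher in bone marrow (3.88 ± 0.21, its other probe 5.24). Its signals were 2356 in bone marrow, against 120 in fetal liver. Ctbp2, a C-terminal binding protein that such factors recruit, was 2.23-fold higher in fetal liver (-1.16 ± 0.20), and its relative Ctbp1 differed by 0.05. The call for Ctbp2 was lost under spike-in scaling (-0.82), normexp (-0.81) and the median pixel signal (-0.98).

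Etv6 encodes an ETS family repressor that mouse stem cells of adult marrow need for their survival. Its signal was 2843 in bone marrow, against 1372 in fetal liver, which scaled to 3.99 in bone marrow and 3.36 in fetal liver. The difference of 0.63 ± 0.20 was 3.11 times its technical error, lay at percentile 86.2 of all gene differences and was under 2-fold. The other ETS genes, 19 of 21 above background, centred on a median of -0.03, with 1 past 2-fold in bone marrow and 2 in fetal liver. Spic, a factor of red pulp macrophages, was 3.91-fold higher in bone marrow (1.97 ± 0.25) and 0.81 on the log2 scale under normexp. Etv4 was 2.17-fold higher in fetal liver, and Elf4, which promotes entry of stem cells into the cycle, at least 2.20-fold, with calls that were lost under normexp and spike-in scaling, and for Elf4 also with the median pixel. Erg and Fli1, ETS factors of stem cells, differed by -0.25 and -0.40. Of the corepressors of Etv6, 4 were measured and none was 2-fold apart.

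Mllt3 encodes AF9, a reader of acylated histones that brings elongation factors and Dot1l to genes and maintains stem cells in human blood. Its signal was 177 in bone marrow, against 180 in fetal liver, and the scaled difference was -0.45 ± 0.21. Of the 12 measured genes of its complexes, 1 passed 2-fold in bone marrow and 0 in fetal liver, with a median of -0.04. This was Aff4, a scaffold of the super elongation complex, at 1.25 ± 0.23, or 0.62 under normexp. Dot1l, a histone methyltransferase, differed by 0.30, and Mllt1, the paralog of Mllt3, by -0.19. Aff3 and Kmt2a had no matched probe.

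Msi2 encodes an RNA-binding protein that controls translation of its targets and sustains stem cell output. Its bright probe had a signal of 4602 in bone marrow, against 5207 in fetal liver, a difference of -0.59 ± 0.20, or 2.91 times its error. The other Msi2 probe was not well above background in bone marrow at 9.76 and reached 16.5 in fetal liver, so it was higher in fetal liver by at least 1.78-fold. Both probes thus had the higher scaled level in fetal liver. None of the 5 genes listed as relatives, partners or targets differed by 2-fold. Msi1, the other Musashi gene, differed by -0.42, Syncrip, an RNA-binding partner of Msi2, by -0.07, and Numb, a target of Musashi translation control, by -0.17.

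Ctnnal1 encodes alpha-catulin, a relative of alpha-catenin and vinculin whose mouse reporter allele marks stem cells. It showed the largest difference among the 10 genes. Its brighter probe had a signal of 216 in bone marrow, against 543 in fetal liver, which scaled to 0.27 in bone marrow and 2.02 in fetal liver. The difference was -1.75 ± 0.21, which is 8.53 times its error and at percentile 2.20 of all gene differences. The other probe gave -1.35 ± 0.22, from signals of 54.4 in bone marrow, against 104 in fetal liver, so both probes were past 2-fold with fetal liver higher. Of 4 measured catenin and vinculin genes, Ctnnd1, p120-catenin, was 2.01-fold higher in fetal liver, a margin over 2-fold far below its error of 0.20. It was under 2-fold in 5 alternatives. Ctnna1, alpha-catenin, differed by -0.11 and Ctnnb1, beta-catenin, by -0.32.

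Fgd5 encodes a guanine nucleotide exchange factor of the small GTPase Cdc42, and a reporter at this gene marks mouse stem cells. Its only probe had a signal of 160 in bone marrow, against 57.8 in fetal liver, a difference of 1.05 ± 0.25 at percentile 92.4 of all gene differences. The software did not mark the bone marrow spot as an outlier, yet its signal differed with how it was read. Its median pixel less background was 106, while the software's background-subtracted signal was 146, a ratio of 0.725, and 0.179% of 10586 spots of like signal on that array had a lower ratio. The fetal liver spot lay the other way, with a median pixel less background of 60, a software signal of 49.5 and a ratio of 1.21. With the median pixel the difference was 0.38, and under normexp, which starts from the same median and adds an offset of 50, it was 0.15. Of the other Fgd genes, Fgd1 was higher in bone marrow by at least 2.72-fold from a dim signal of 35.7, or 0.17 under normexp, and Fgd2, Fgd3 and Fgd4 differed by 0.33, 0.16 and -0.22. Cdc42 itself differed by -0.13.

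The start-site windows of the 3 members past 2-fold are shown to set their base composition side by side. Capitals mark the GC box GGGCGG on either strand. The windows lie at chr4:56865162-56865461 on the minus strand for Ctnnal1, chr6:91978715-91979014 on the plus strand for Fgd5 and chr2:36230176-36230475 on the plus strand for Ptgs1.
Ctnnal1 start: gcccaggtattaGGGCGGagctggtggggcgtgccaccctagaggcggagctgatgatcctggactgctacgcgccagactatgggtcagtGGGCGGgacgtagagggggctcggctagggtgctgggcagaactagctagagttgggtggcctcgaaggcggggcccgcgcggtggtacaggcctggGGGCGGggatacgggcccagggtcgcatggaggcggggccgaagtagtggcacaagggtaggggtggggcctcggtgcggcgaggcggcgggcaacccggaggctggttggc
Fgd5 start: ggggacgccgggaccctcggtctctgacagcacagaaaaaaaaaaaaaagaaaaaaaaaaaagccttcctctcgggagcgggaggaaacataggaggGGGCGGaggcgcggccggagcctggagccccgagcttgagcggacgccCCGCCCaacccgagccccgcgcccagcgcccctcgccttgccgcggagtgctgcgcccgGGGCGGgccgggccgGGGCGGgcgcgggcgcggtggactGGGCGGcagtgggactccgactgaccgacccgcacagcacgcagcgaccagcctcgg
Ptgs1 start: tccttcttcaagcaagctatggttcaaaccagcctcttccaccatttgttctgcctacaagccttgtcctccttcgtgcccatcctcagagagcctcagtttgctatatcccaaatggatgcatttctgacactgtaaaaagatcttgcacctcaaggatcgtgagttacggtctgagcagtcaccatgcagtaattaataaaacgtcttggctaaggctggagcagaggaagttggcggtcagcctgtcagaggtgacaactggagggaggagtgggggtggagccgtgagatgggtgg
Ctnnal1 and Fgd5 have windows rich in CpG, with 24 CpG pairs and 3 GC boxes for Ctnnal1 and 37 CpG pairs and 5 GC boxes for Fgd5. The Ptgs1 window has 6 CpG pairs, beside a median of 7 over all windows, and none of the 9 motifs searched. These were searched on both strands: GGGCGG as the GC box, TGACGTCA as the CRE, CACGTG as the E-box, AGATAA for GATA factors, CCGGAAG for ETS factors, TGTGGT for RUNX factors, TTACGTAA for PAR bZIP factors, and the TATAAA and CCAAT boxes. A GC box stood in 10 of the 14 member windows, 3 of them overlapping windows of Msi2, and in 35.7% of all windows, and the CRE in those of Hlf and Msi2 and in 1.79% of all windows. Such matches describe letters only.

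Robo4 encodes a receptor of endothelium and stem cells that helps them settle in marrow together with Cxcr4. Its signal was 2463 in bone marrow, against 2543 in fetal liver, and the scaled difference was -0.46 ± 0.20. In its pathway the chemokine receptor gene Cxcr4 was 3.57-fold higher in bone marrow (1.84 ± 0.20), with signals of 1428 in bone marrow, against 300 in fetal liver. Of 8 measured genes in that list, 2 passed 2-fold in bone marrow and 3 in fetal liver. Those higher in fetal liver were not above background in bone marrow, which leaves bounds of at least 6.72-fold for Srgap1, a GTPase activator that binds Robo proteins, 4.58-fold for Slit2, a Robo ligand, and 2.80-fold for Robo1. The bound of Srgap1 comes from 1 of its 3 probes, and its other probes were dim on both arrays. Slit1 passed 2-fold in bone marrow by 1.02 ± 0.33. Under normexp Slit1, Slit2 and Robo1 were under 2-fold.

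Ptgs1 encodes cyclooxygenase 1, which makes the precursor of all prostaglandins and thromboxane, lipid signals that act on stem cell number and homing. Its signal was 1687 in bone marrow, against 3291 in fetal liver, which scaled to 3.24 in bone marrow and 4.62 in fetal liver. The difference was -1.38 ± 0.20, at percentile 3.63 of all gene differences and 6.77 times its error. The inducible cyclooxygenase gene Ptgs2 lay on the other side, 9.11-fold higher in bone marrow (3.19 ± 0.21), with signals of 880 in bone marrow, against 72.3 in fetal liver. Higher in bone marrow too were Ptgds, prostaglandin D synthase, by 7.85-fold and Tbxas1, thromboxane synthase, by 2.24-fold. The prostaglandin E synthase genes were under 2-fold, with Ptges at -0.20 and its other probe at 0.64, Ptges2 at -0.73 and Ptges3 at -0.08. In all, 3 of 8 measured enzymes passed 2-fold in bone marrow and 0 in fetal liver, and the median was -0.14.

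Prostanoid receptor genes past 2-fold lay on both sides, with 2 of 6 measured in bone marrow and 2 in fetal liver, and a median of -0.64. The prostaglandin E2 receptor genes Ptger4 and Ptger3 were 4.55-fold and 3.25-fold higher in bone marrow, with the other Ptger3 probe at 0.83. Ptger2, which also binds prostaglandin E2, was 2.86-fold higher in fetal liver from signals of 33.1 in bone marrow, against 70.9 in fetal liver, and was at -0.75 under normexp. Ptgir, the prostacyclin receptor gene, was 4.75-fold higher in fetal liver (-2.25 ± 0.22), with signals of 44.4 in bone marrow, against 158 in fetal liver. Tbxa2r, the thromboxane receptor gene, differed by -0.48. Ptger1, Ptgdr and Ptgfr were not well above background on either array.

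**Figure D2:**
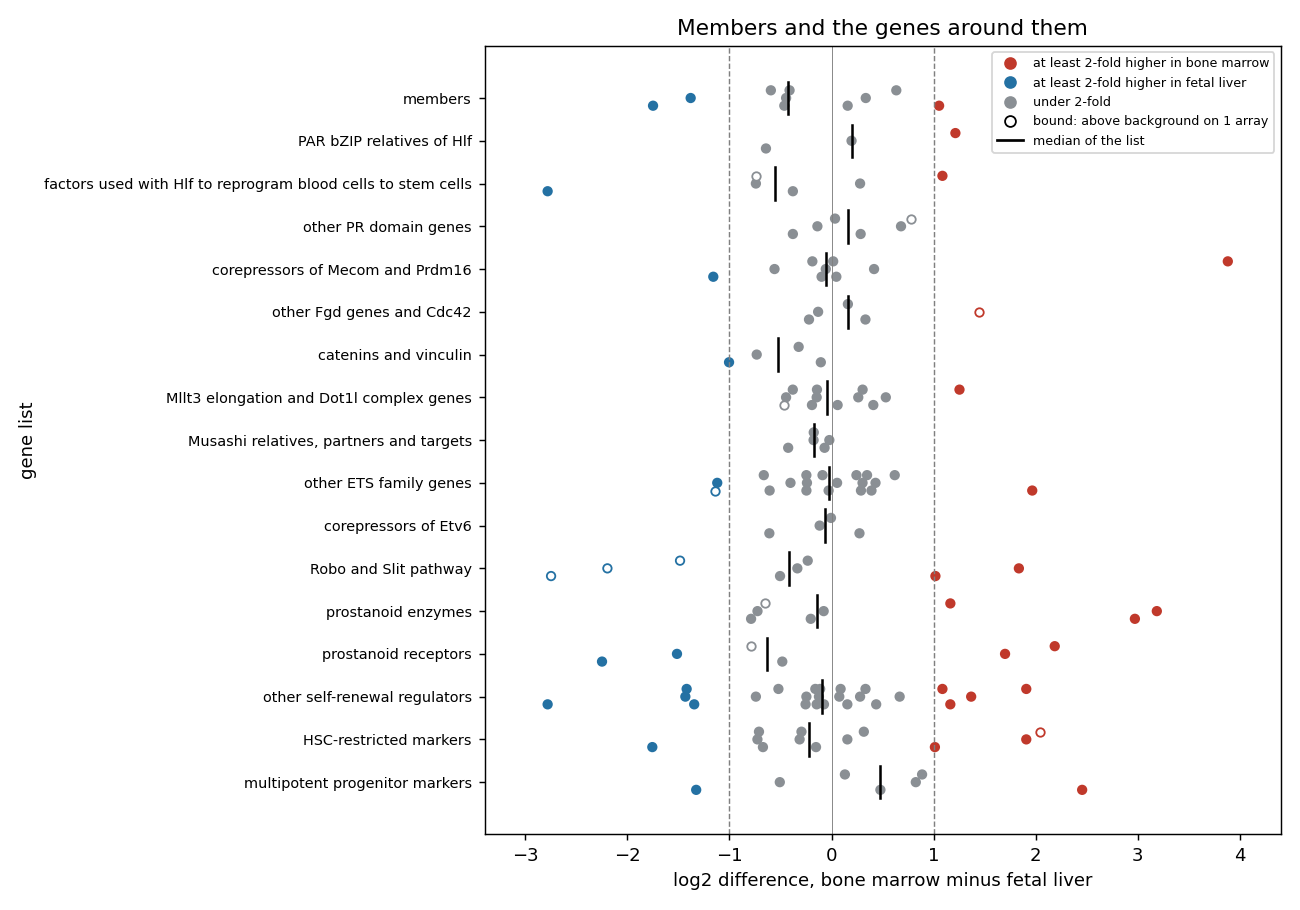
Difference of each measured gene (x axis, log2, bone marrow minus fetal liver) for the 10 members in the top row and 16 lists of genes around them. Red points are at least 2-fold higher in bone marrow, blue points at least 2-fold higher in fetal liver, open points are bounds, and black bars are list medians. All list medians lie within the dashed 2-fold lines, and the prostanoid genes hold points far out on both sides.

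Other regulators of self-renewal were measured for 24 of 25 genes. Past 2-fold were 4 in bone marrow, against 4 in fetal liver, with a median of -0.09. Those higher in bone marrow were Tcf15, a basic helix-loop-helix factor of quiescent stem cells, at 1.91 ± 0.21, Nfix, a nuclear factor needed for stem cell survival after transplantation, at 1.37, Ezh1, a Polycomb methyltransferase, at 1.16 with probes from 0.66, and Lmo2. Those higher in fetal liver were Mycn, Dnmt3a, a DNA methyltransferase, at -1.43, Ndn, a growth suppressor, at -1.42, and Gfi1, a repressor that restrains stem cell cycling, at -1.35. Bmi1, the Polycomb gene of adult self-renewal, differed by -0.15 and Gata2 by 0.67. The lists around the members hold 157 different genes, of which 130 were above background. Of these, 19 (14.6%) passed 2-fold in bone marrow and 15 (11.5%) in fetal liver, beside 8.15% in bone marrow and 6.76% in fetal liver over all genes. The lists were chosen with earlier results of these data known, so nothing is read from that gap.

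Genes that mark stem cells within LSK went both ways, with 3 of 12 past 2-fold in bone marrow and 1 in fetal liver, and a median of -0.22. Procr differed by 0.32, Slamf1 by -0.73 and Esam by -0.71. Tek, the angiopoietin receptor gene, was 3.38-fold higher in fetal liver at dim signals of 15.4 in bone marrow, against 38.9 in fetal liver. Clec1a was higher in bone marrow by at least 4.13-fold, though at 0.62 under normexp. Pdzk1ip1 was 2.02-fold higher in bone marrow, though under 2-fold with the median pixel (0.91) and as the mean of its probes. Under normexp the value of Tek was -0.65. Markers of multipotent progenitors had a median of 0.48. Flt3 differed by 0.89, while Il7r was 2.51-fold higher in fetal liver, from dim signals of 22.5 in bone marrow, against 42.3 in fetal liver, and under 2-fold with normexp (-0.72) and spike-in scaling (-0.99). The part of a different share of stem cells in either sort was not tested.

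**Figure D3:**
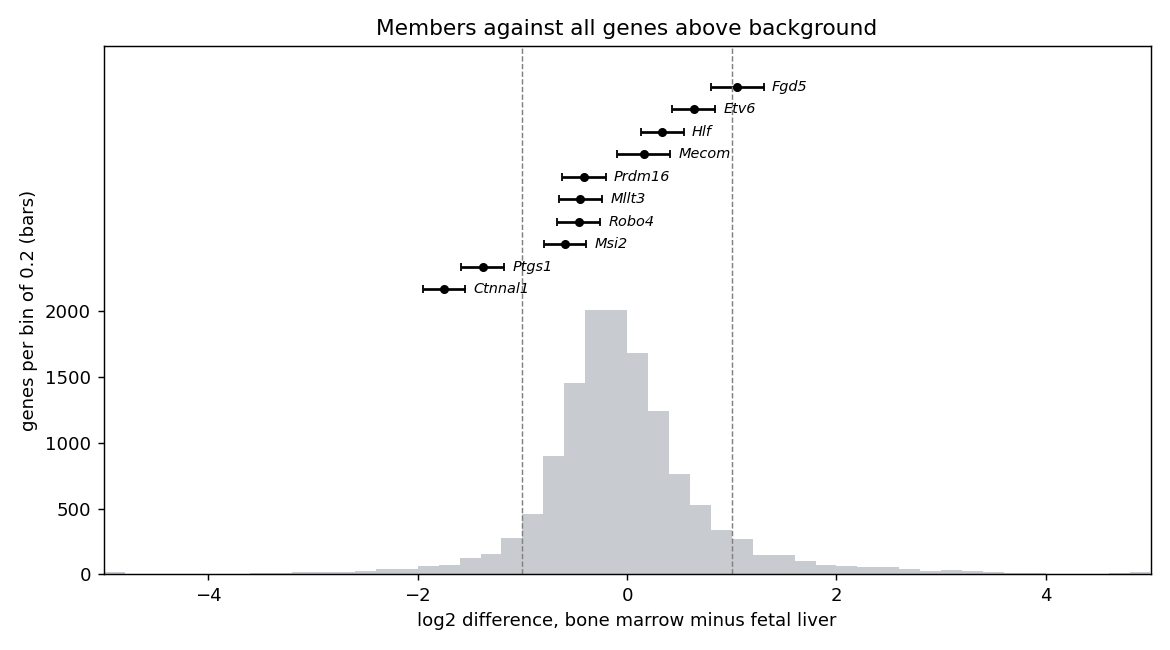
Grey bars count genes by their log2 difference, bone marrow minus fetal liver (x axis), over 13380 genes in bins of 0.2, with values beyond 5 in the end bins. Black points with technical errors are the 10 members, offset in height only for legibility, and dashed lines mark 2-fold. Most members lie between the lines, Ctnnal1 and Ptgs1 lie left of them, and Fgd5 lies on the right line within its error.

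Markers of the sort and of other cells were read on the same arrays. Kit differed by 0.00 and the Sca-1 gene Ly6a by 2.28, 4.85-fold with bone marrow higher. Cd8a and Ms4a1, markers of mature lymphocytes, were not well above background on either array, while the lineage markers Cd3e, Cd4, Itgam and Klrb1c were above it on both and under 2-fold apart. Endothelium also expresses Robo4, Fgd5 and Mecom. Of 10 endothelial markers 9 were above background, 0 passed 2-fold in bone marrow and 2 in fetal liver, and their median difference was -0.51. Pecam1 differed by 0.84 and Eng by 0.28. The summed scaled signal of the list was 362 in bone marrow, against 611 in fetal liver, and without Egfl7, which makes most of it, 54.6 in bone marrow, against 76.6 in fetal liver. Such sums weight each gene by the strength of its probe, so shares of a sum are not shares of RNA. Plvap was above background on both arrays and 3.14-fold higher in fetal liver, with signals of 96.7 in bone marrow, against 228 in fetal liver. It stayed past 2-fold under every alternative, at -1.25 under normexp, and its other probe was at -0.82. Cdh5 was not well above background in bone marrow, at a signal of 2.95, and had 42.0 in fetal liver. The call for Cdh5 was lost under normexp (-0.84), and Lyve1 was not above background on either array. Platelets and mast cells express Ptgs1. All 8 megakaryocyte and platelet markers were above background, with Itga2b (5.67-fold), Gp1bb (3.95-fold) and Pf4 (3.79-fold) higher in bone marrow and Gp9 (2.64-fold) in fetal liver, of which Gp1bb was under 2-fold with normexp (0.56). Their summed scaled signal was 32.2 in bone marrow, against 35.0 in fetal liver, and without Gp9 it was 21.4 in bone marrow, against 6.57 in fetal liver. The mast cell list summed to 4.56 in bone marrow, against 2.19 in fetal liver, with 5 of 7 genes above background. It also holds Mcpt8, a basophil gene, with signals of 327 in bone marrow, against 17.8 in fetal liver. Mcpt8 and Fcer1a, which basophils also express, passed 2-fold in bone marrow and 0 genes in fetal liver. Cpa3 differed by 0.39, Tpsb2 by -0.40 and Mcpt4, a bound, by at least 0.68. Ms4a2 and Cma1 were above background on neither array. Fcer1a was at 0.41 under normexp. Of 7 hepatocyte markers Alb, Apoa1 and Ttr were dim on both arrays, while Afp and Fgb passed 2-fold in bone marrow, Fgb not with normexp (0.49), and 0 in fetal liver, with summed scaled signals of 13.9 in bone marrow, against 9.53 in fetal liver. Macrophage markers summed to 27.9 in bone marrow, against 34.2 in fetal liver, nearly all of it Csf1r, and without that gene to 0.373 in bone marrow, against 0.441 in fetal liver. Of 4 measured, 0 passed 2-fold in bone marrow and 1, Cd5l, in fetal liver, though not with normexp (-0.46) or spike-in scaling (-0.76). The part of these cells in the members' differences was not tested.

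The scale of the arrays bears on small differences. When the median of the spike-in controls was set equal, each measured difference was 0.33 higher. The median of all genes moved to 0.23 and that of the members to -0.09. This scale rests on the 8 of 10 spike-in controls that were above background on both arrays. Their unscaled log2 differences had a median of 0.08 and an SD of 0.19, so the shift itself is uncertain. The share of 2-fold calls that were higher in bone marrow was 54.7% under the percentile and 77.5% under the spike-in controls. Relative to the median of all genes, Ctnnal1 lay at -1.64, Ptgs1 at -1.27, Etv6 at 0.74 and Hlf at 0.44, and these values are the same on both scales. Under both scales Hlf, Etv6 and Fgd5 had positive differences and Ctnnal1, Ptgs1 and Msi2 negative ones. Hlf as reported (0.34) and Msi2 under spike-in scaling (-0.26) were less than 2 technical errors from 0, so neither direction is firm. Under spike-in scaling Robo4 was at -0.13, Mllt3 at -0.11 and Prdm16 at -0.08, each smaller than its technical error, so these genes have no settled direction.

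**Figure D4:**
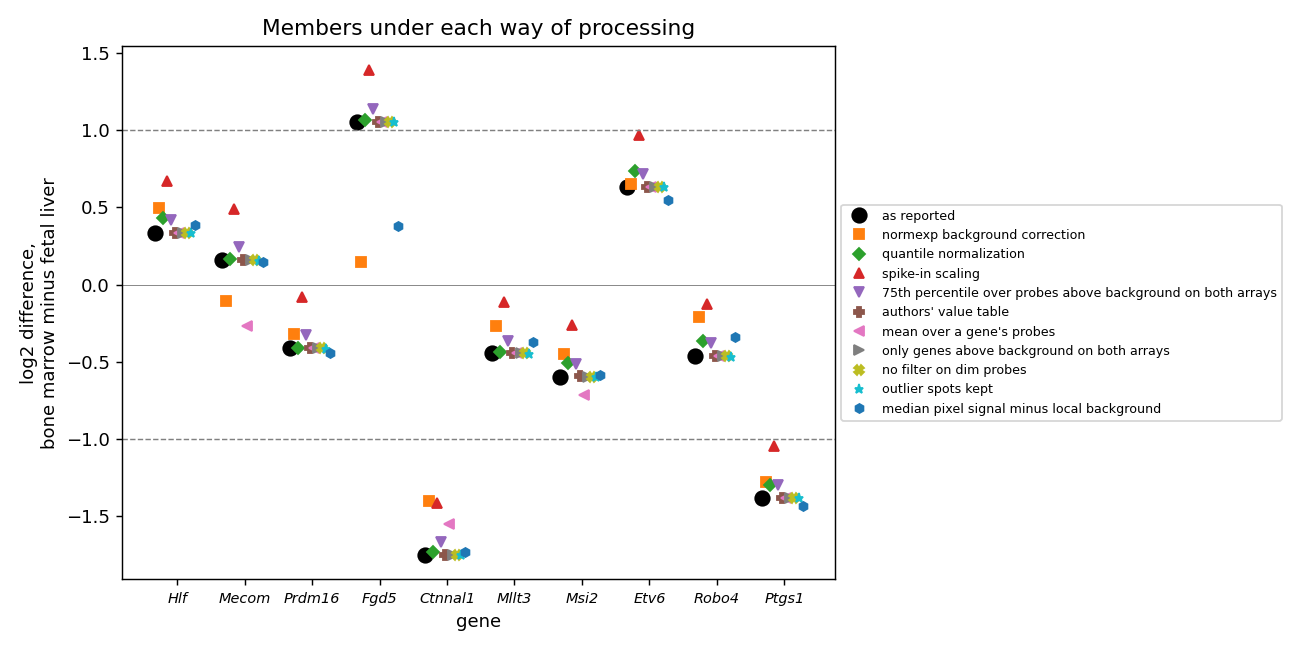
Difference of each member (y axis, log2, bone marrow minus fetal liver) as reported, in black, and under 10 other ways of processing, 1 symbol each, with dashed lines at 2-fold. Ctnnal1 and Ptgs1 lie below the lower line under all of them, though some of these ways can hardly move a member. Fgd5 drops from above the upper line to 0.15 and 0.38 with methods that start from the median pixel, and the Mecom points fall on both sides of 0.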

How the data were processed

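RNA of sorted LSK cells, 20 ng per sample per the labels' protocols, was labelled with Cy3 and hybridised to 1 array per group. Per the file headers, Agilent Feature Extraction 10.7.1.1 made the deposited intensity values, with background already taken off. Other deposited columns used are flags per spot, of unit other. The deposited value table of the series holds a linear ratio, the same signal over a divisor that is fixed within an array (179 in bone marrow, 134 in fetal liver), and its column medians are 0.0589 (bone marrow) and 0.0604 (fetal liver). It is not logged or centred by gene, and no source used here gives the choice of divisor. The divisors, 178.6 in bone marrow and 133.9 in fetal liver, lay close to the 75th percentiles used here, 178.9 in bone marrow and 134.0 in fetal liver. The deposited values are thus scaled almost as in the main results.

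Each array held 59305 non-control spots. Spots marked as outliers, 137 in bone marrow and 122 in fetal liver, were left out, and spots of a probe were averaged. Well above background were 47.4% of the probes in bone marrow and 46.4% in fetal liver, and 0 spots were saturated. Symbols came from RefSeq (GRCm38.p6) through unversioned accessions, which named 27220 of 55664 probes. The array design uses mm9, so coordinates are given only for the RefSeq windows. A gene takes its probe with the highest mean signal. A probe above background on 1 array gives a bound against the higher of its own dim signal and the lowest signal well above background there (12.4 for bone marrow, 9.82 for fetal liver), written as at least N-fold.

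A single array a group allows no test, so genes were counted by size, at least 2-fold. Slide and group cannot be told apart, and the number of arrays limits the precision. The median technical error of a log2 difference was 0.20. For bright members such as Hlf and Ptgs1 the software error was 10.0% of the signal on each array, so it hardly varied between them. Repeated spots spread less. Over 240 probes with at least 8 usable spots on both arrays, the log2 difference between single spots had a median SD of 0.09. Member probes had 1 spot per array, so their own spread was not measured, and multiples of the technical error refer to the software's figure only. The members and lists were chosen with earlier results of these data known. Named genes are all members and, from each list, up to 4 genes at least 2-fold apart plus partners of the members; other genes named as examples were chosen after their values were seen. Python 3.11.15, pandas 2.3.3 and limma 3.58.1 (normexp, offset 50) were used, and the functions were tested on simulated data. Normexp started from the median pixel signal in place of the mean, which was not used here.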

Additional observations from a re-analysis of the deposited data

How the results depend on the processing

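Of 10 alternatives listed at the start, 9 were run. Matching probes by gene name was not run. The median pixel signal was added after seeing the data. Among members, Fgd5 alone left the 95% technical interval of its reported value, at 0.15 under normexp and 0.38 with the median pixel, so that 0 members passed 2-fold in bone marrow under either. Normexp changes the input signal, the background and the offset together, and their parts were not tested. That the others stayed inside says little. The filters on dim probes cannot move a member, nor can the mean of probes where a gene has 1 probe. The deposited value table and the kept outlier spots left members nearly unchanged (Ptgs1 at -1.38 under each). Spike-in scaling moves each member by 0.33. Mecom changed sign within its 95% technical interval, to -0.11 under normexp and -0.27 as the mean of its probes. Ctnnal1 ranged from -1.75 to -1.40 and Ptgs1 from -1.44 to -1.05. Over all genes, the counts past 2-fold toward bone marrow and toward fetal liver were 1091 and 904 as reported, 606 and 379 under normexp, 1756 and 510 under spike-in scaling, and 1655 and 1691 without the filter on dim probes, where 20651 genes were counted. Why normexp lowered both counts was not tested. Of 34 list genes past 2-fold, 17 stayed past it under every alternative that gave them a value, 14 were under it with normexp and 5 with spike-in scaling, and 0 reversed. No paired analysis was possible because each group has 1 array. No replicate could be left out for the same reason.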

Other observations

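The probes of Srgap2, a relative of Srgap1 in the Robo and Slit list, disagreed, and the gene is named here because of that. Their log2 differences, bone marrow minus fetal liver, ranged from -0.23 to 1.27, and no single direction is given for it.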
